A study of Mus musculus with 2 samples.

Results

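Cytosolic ribosomal proteins, together with ribosomal RNA, build the small (40S) and large (60S) subunits of the ribosome that translates nuclear-encoded mRNA. Nearly all are present in equal amounts per ribosome, and in mammals nearly every one is encoded by a single gene with introns, while reverse transcription of these abundant mRNAs has left many processed pseudogenes that resemble the spliced mRNA. Many ribosomal protein mRNAs begin with a C followed by a run of pyrimidines, the 5′ terminal oligopyrimidine (TOP) motif, through which mTOR signalling controls their translation. A few members have paralogues ("like" genes), among them Rpl3l, which is known from adult heart and skeletal muscle.

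The genes were chosen by symbol from the mouse GENCODE annotation: protein-coding genes named Rpl or Rps with a number, Rplp0 to Rplp2, and Rpsa. The rule found 83 genes among the 43346 Ensembl genes and 69691 features of the tables, and all 83 were listed for both libraries. They comprise 46 proteins of the 60S subunit, 31 of the 40S subunit, and 6 paralogues with a "like" symbol (Rpl3l, Rpl7l1, Rpl10l, Rpl22l1, Rpl39l and Rps27l). The 77 genes that are not paralogues are called core genes here. The rule leaves out, among others, Fau, Rpl36al, Rps27rt and Rack1, which also encode ribosomal proteins or fusions with them. The members lie on 19 chromosomes, with 14 on chromosome 7 and 4 on X.

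Both libraries are of 1 group, heart tissue of B6NCrl mouse embryos at embryonic day 13.5, with males and females pooled, made from 10 ng of RNA above 200 nt with spike-in RNA added. The labels name them biological replicates 1 and 2 and give both tissue samples the same donor entry. There is no second condition, so no test between groups was possible, and the spread given is that between these 2 libraries. The libraries held 36733400 and 36060765 estimated reads in replicates 1 and 2, and ribosomal protein genes took 1.90% and 1.99% of the reads assigned to genes. All 8 heart markers listed for the tissue check reached 100 TPM in both libraries, for example Actc1, cardiac actin, at 8858 and 10485 TPM in replicates 1 and 2. The 7 liver markers with enough reads were all at least 2-fold higher in replicate 2 after scaling, and spike-ins made up 11.1% and 5.04% of TPM in replicates 1 and 2. The 8 erythroid markers summed to 111237 and 71636 TPM in replicates 1 and 2. Their median log2 ratio after scaling was 0.76, replicate 1 over replicate 2, though Gata1 and Klf1, 2 erythroid regulators, were over 2-fold higher in replicate 2. The part of these marker and spike-in differences in the values below was not tested.

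The short stretches that follow are shown because the copies nearest to these 2 core genes differ from them by few or no bases. For each gene the 3 copies with the most shared 50-nt windows are given, of 4 for Rpl5 and 5 for Rps23. Each line is 60 bases of coding sequence from GENCODE M21 transcripts (GRCm38), with bases that differ from the parent gene in capitals. The stretch was picked, among those aligned without gaps, where the most shown copies differ and then for the most differences. It is therefore not typical of the whole coding sequence. The Rpl5 stretch (bases 550 to 609 of a coding sequence of 891 nt, gene at chr5:107900502-107909005, plus strand) stands beside Gm15500 (chr7:114705217-114706235, minus strand), Rpl5-ps1 (chr1:14865072-14865965, plus strand) and Rpl5-ps2 (chr2:154703809-154704699, plus strand).
Rpl5: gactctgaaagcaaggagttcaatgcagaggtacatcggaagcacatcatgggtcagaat
Gm15500: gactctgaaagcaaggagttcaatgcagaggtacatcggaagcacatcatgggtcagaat
Rpl5-ps1: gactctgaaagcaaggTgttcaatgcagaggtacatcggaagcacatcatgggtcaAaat
Rpl5-ps2: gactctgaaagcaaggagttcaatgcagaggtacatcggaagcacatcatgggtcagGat

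Over the whole Rpl5 coding sequence Gm15500 had 0 differences, Rpl5-ps1 10 in 891 aligned bases and Rpl5-ps2 11 in 888. The Rps23 stretch (bases 301 to 360 of 429 nt, gene at chr13:90922958-90924950, plus strand) stands beside Rps23-ps1 (chr3:37714740-37715164, plus strand), Rps23-ps2 (chr8:3583799-3584230, minus strand) and Gm14633 (chrX:56447888-56448357, minus strand).
Rps23: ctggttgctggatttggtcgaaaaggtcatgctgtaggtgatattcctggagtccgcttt
Rps23-ps1: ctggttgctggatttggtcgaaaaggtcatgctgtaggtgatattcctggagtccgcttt
Rps23-ps2: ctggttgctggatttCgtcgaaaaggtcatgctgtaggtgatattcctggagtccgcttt
Gm14633: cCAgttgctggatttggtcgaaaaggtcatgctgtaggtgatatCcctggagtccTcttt

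Rps23-ps1 had 0 differences from Rps23 in 425 aligned coding bases, Rps23-ps2 had 2 in 429 and Gm14633 had 6 in 426. The listed levels of these 6 pseudogenes were far apart. Gm15500 was listed at 416 and 471 TPM in replicates 1 and 2, and Rps23-ps1 at 728 and 845 TPM, while the other 4 stayed below 1 TPM in both libraries.

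Of the 83 members, 80 had at least 1 TPM (a read level per transcript length, scaled to a fixed sum) in both libraries, beside 57.3% of all protein-coding genes. At 100 TPM the count was 75 of 83, beside 5.43% of protein-coding genes. The median over core genes was 485 TPM, and their summed level was 21401 and 24106 TPM for the 60S proteins and 15689 and 17948 TPM for the 40S proteins in replicates 1 and 2. The median 60S gene stood at 469 TPM and the median 40S gene at 487 TPM. Mitochondrial ribosomal proteins, which serve the separate ribosome of that organelle, had a median of 84.7 TPM over 77 genes.

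Rpl41, a very short basic protein of the 60S subunit, was the highest member at 2068 and 2363 TPM in replicates 1 and 2. Rpl32 of the 60S subunit followed at 1065 and 1179 TPM, and Rps29 of the 40S subunit at 1077 and 1168 TPM. Rps19, a 40S protein whose human gene is the one most often mutated in Diamond-Blackfan anaemia, had 954 and 1155 TPM in replicates 1 and 2. Rpl32 and Rps29 changed order between the libraries. Rps19 was listed below both of them in each library, and Rpl36 (947 and 1075 TPM) below Rps19 in each library. These gaps were small in places: the deposited interval of Rps19 overlapped that of Rpl36 in replicate 1 and those of Rpl32 and Rps29 in replicate 2. The 12 highest members also included Rps14 at 877 and 1029 TPM and Rplp0 at 778 and 911 TPM. Below these, still among the 12, stood Rpl37a (766 and 872 TPM), Rpl7 (767 and 830 TPM), Rps18 (702 and 874 TPM) and Rplp1 (717 and 856 TPM).

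**Figure D1:**
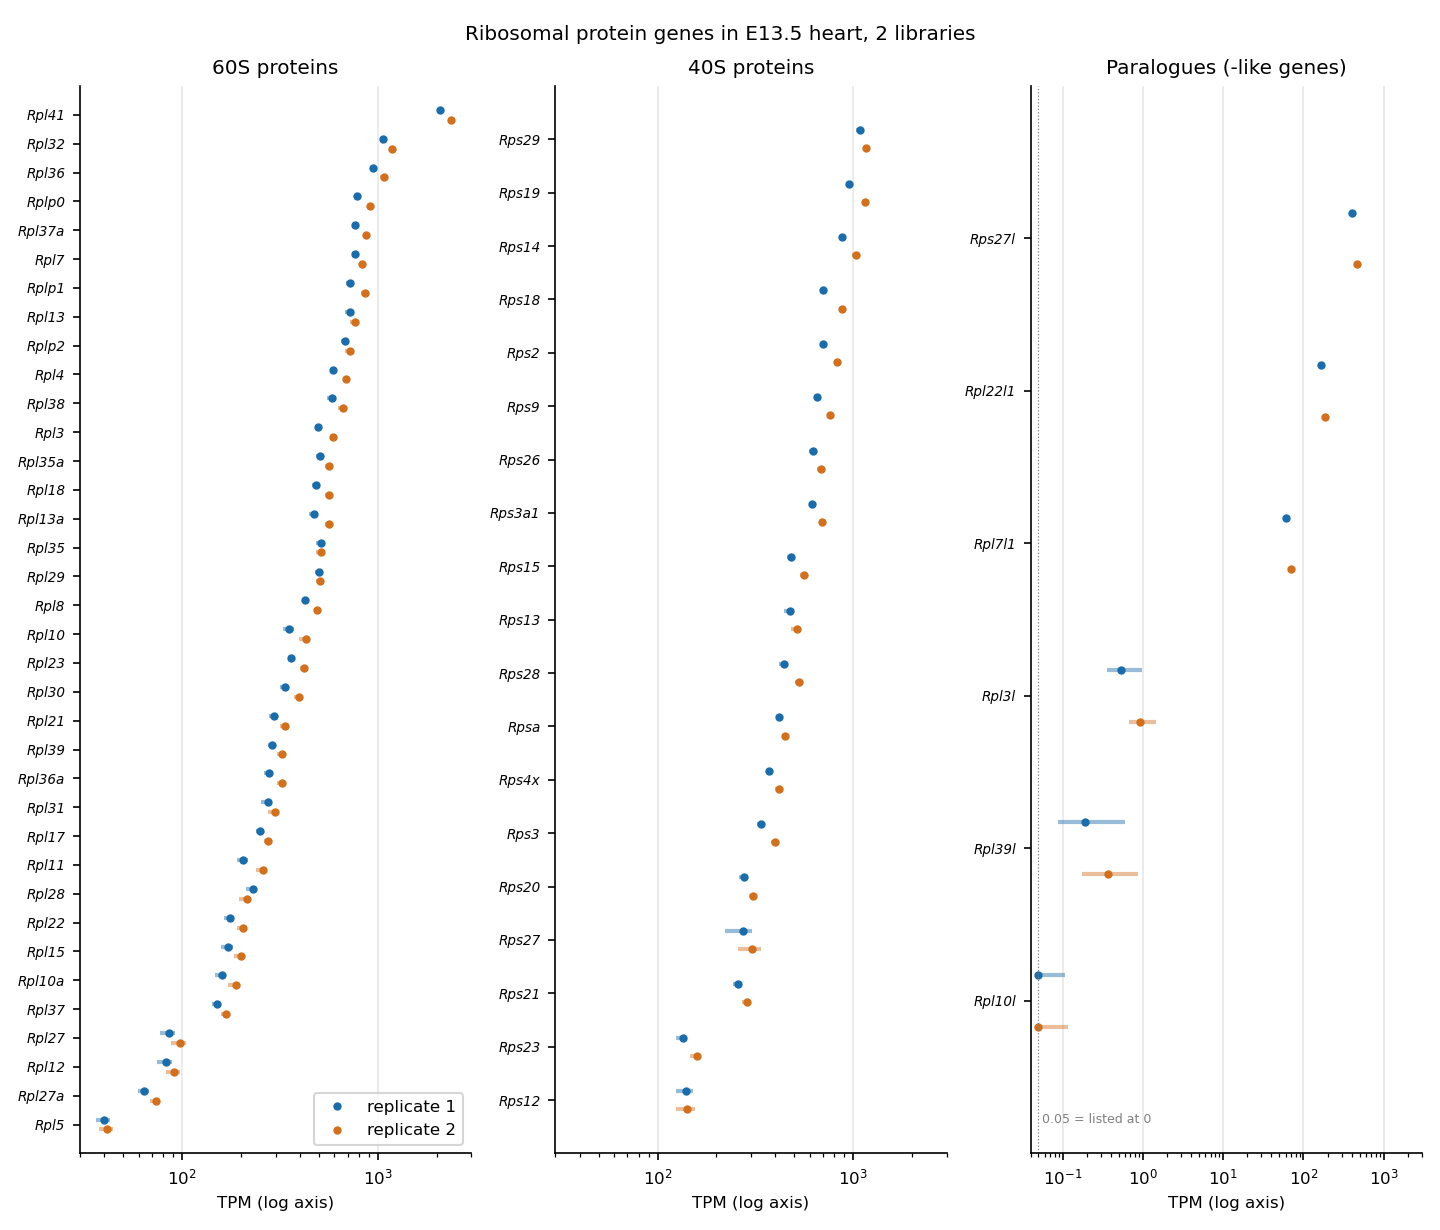
TPM (log axis) of the 61 members named in the text in replicate 1 (blue) and replicate 2 (orange), in 3 panels for 60S proteins, 40S proteins and paralogues; points are deposited TPM and bars the deposited credibility interval. Core genes run from Rpl5 (39.8 and 41.2 TPM) to Rpl41 (2068 and 2363 TPM), and Rpl3l, Rpl39l and Rpl10l lie below 1 TPM.

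The 3 proteins of the stalk, which recruits translation factors to the 60S subunit, lay close together. Rplp0, the base of the stalk, had a mean of 845 ± 94.4 TPM, Rplp1 786 ± 98.3 TPM and Rplp2 699 ± 24.6 TPM (SD, n = 2 libraries each). Rplp1 over Rplp2 was 0.16 ± 0.13 on the log2 scale (SD, n = 2), a difference about as large as its spread. Among the proteins that line or border the peptide exit tunnel, Rpl4 had 589 and 684 TPM, Rpl39 289 and 322 TPM, Rpl17 250 and 276 TPM, and Rpl22 175 and 204 TPM in replicates 1 and 2.

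The 7 proteins listed for the mRNA channel and decoding region of the 40S subunit were all above 100 TPM. Rps2 was highest of them at 703 and 829 TPM in replicates 1 and 2, with Rps26 at 622 and 687 TPM and Rps3a1 at 612 and 694 TPM. Rps23, which reaches into the decoding centre, was the lowest at 134 and 159 TPM. The other 3 of that list were Rps15 at 483 and 563 TPM, Rps28 at 444 and 531 TPM and Rps3 at 336 and 397 TPM.

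The low end of the core genes was set by 4 proteins of the 60S subunit below 100 TPM. Rpl5, which carries 5S rRNA into the ribosome and also binds Mdm2, had 39.8 and 41.2 TPM in replicates 1 and 2. Rpl11, its partner in the 5S particle, had 205 and 259 TPM. Rpl27a had 64.2 and 73.6 TPM, Rpl12, near the base of the stalk, 82.6 and 91.2 TPM, and Rpl27 85.6 and 96.9 TPM. The 12 lowest members in all were these 4 (Rpl5, Rpl27a, Rpl12 and Rpl27), Rps12 (141 and 142 TPM), Rps23, Rpl37 (151 and 168 TPM), Rpl10a (159 and 188 TPM) and 4 paralogues: Rpl7l1, Rpl3l, Rpl39l and Rpl10l. Highest over lowest core gene was 54.7-fold, and the SD of log2 TPM over core genes was 0.98.

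Sequences shared with other genes were common. Windows of 50 nt of a member's transcripts were looked up in the transcripts of every other gene in the files. Of 83 members, 79 shared at least 1 window, beside 40.2% of protein-coding genes, and 66 shared at least 10% of their windows, beside 16.5%. The median shared share was 22.8% for members and 0.177% for mitochondrial ribosomal proteins. The 8 largest shares were those of Rps27 (98.6%), Rps12 (85.7%), Rps13 (83.0%), Rpl36 (81.1%), Rpl17 (78.7%), Rpl18 (74.3%), Rpl29 (67.4%) and Rps3a1 (66.8%). At the other end Rps9, Rpl3l and Rpl39l were among the 4 members that shared none, and Rpl23 shared 1.48%, Rps20 1.99%, Rps3 2.06% and Rpl22 3.47%.

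Features outside the members with at least 25% of their own windows in a member are called copies. There were 315, of which 306 were annotated as pseudogenes and 8 as protein-coding, and 68 members had at least 1. Rpl21 had the most, with 26. Of the copies, 106 had at least 1 TPM in both libraries and 26 at least 100 TPM. In sum they held 11050 and 12907 TPM in replicates 1 and 2, or 22.7% and 23.2% of the level of members and copies together.

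The copies with high listed levels were those closest in sequence. Of the 22 copies with at least 99% of their windows in the member, 16 had at least 100 TPM in both libraries, and their median was 331 TPM. Of 54 with 75 to 99%, 7 reached 100 TPM and the median was 5.57 TPM. Of 239 with 25 to 75%, 3 reached it and the median was 0.315 TPM. These classes were drawn after the values were seen. The pattern had exceptions: 4 of the 22 closest copies had 0 reads in both libraries, and Rpl37rt, with 38.7% of its windows in Rpl37, was listed at 495 and 562 TPM in replicates 1 and 2.

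**Figure D2:**
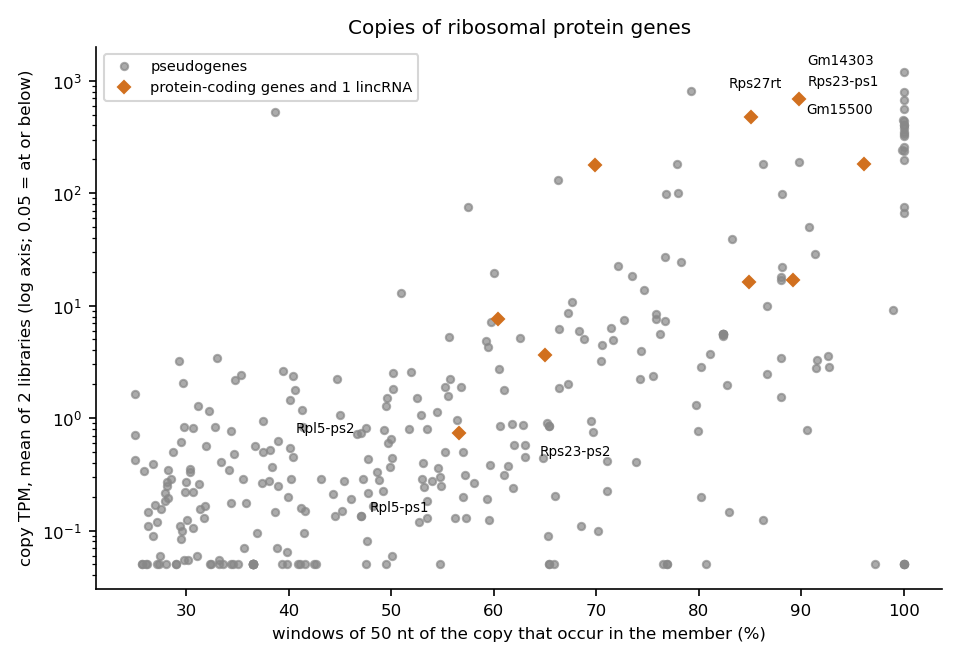
Mean TPM of each of the 315 copies (log axis, values of 0.05 or less drawn at 0.05) against the share of its 50-nt windows that occur in the member, pseudogenes in grey and the other copies in orange. Gm14303, Rps23-ps1 and Gm15500 sit among the high copies at or near 100%, while Rpl5-ps1, Rpl5-ps2 and Rps23-ps2 sit below 1 TPM.

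The 6 copies with the highest level included Gm14303 (Rps29) at 1206 and 1201 TPM in replicates 1 and 2, Rps23-ps1, Rps27rt (Rps27) at 622 and 767 TPM, Gm12918 (Rpl13) at 597 and 739 TPM, and Rpl15-ps3 (Rpl15) at 517 and 601 TPM. Each of these had estimated counts that were not whole in both libraries. Gm12918 was listed below Rpl13 in both libraries, and the others named here above their member in both. Gm14303 did not show the higher TPM of replicate 2 that most members had.

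In 14 members the copies were listed above the member, and 10 of those 14 were among the 12 lowest core genes. The other 4 were core genes outside the lowest 12. A low TPM of a member both places it among the lowest and makes it easier for copies to exceed it. The overlap is therefore partly built in and is no separate result. Rpl5 held 8.37% of the summed level of itself and its copies, Rpl27 11.2%, Rps23 15.7%, Rpl27a 16.3%, Rpl37 23.2% and Rpl12 26.0%. With each member and its copies added up, the range over core genes was 12.6-fold and the SD of log2 TPM 0.67, and 67 of 77 lay within 2-fold of their median, against 59 of 77 for the members alone. Summed means were highest for Rpl41, with 2229 and 2556 TPM in replicates 1 and 2, and Rps29, with 2284 and 2372 TPM, whose order turned between the libraries. The lowest summed level was that of Rpl22 with 175 and 204 TPM, which had no copy. Which of the summed transcripts came from the member and which from its copies cannot be told apart in these tables.

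**Figure D3:**
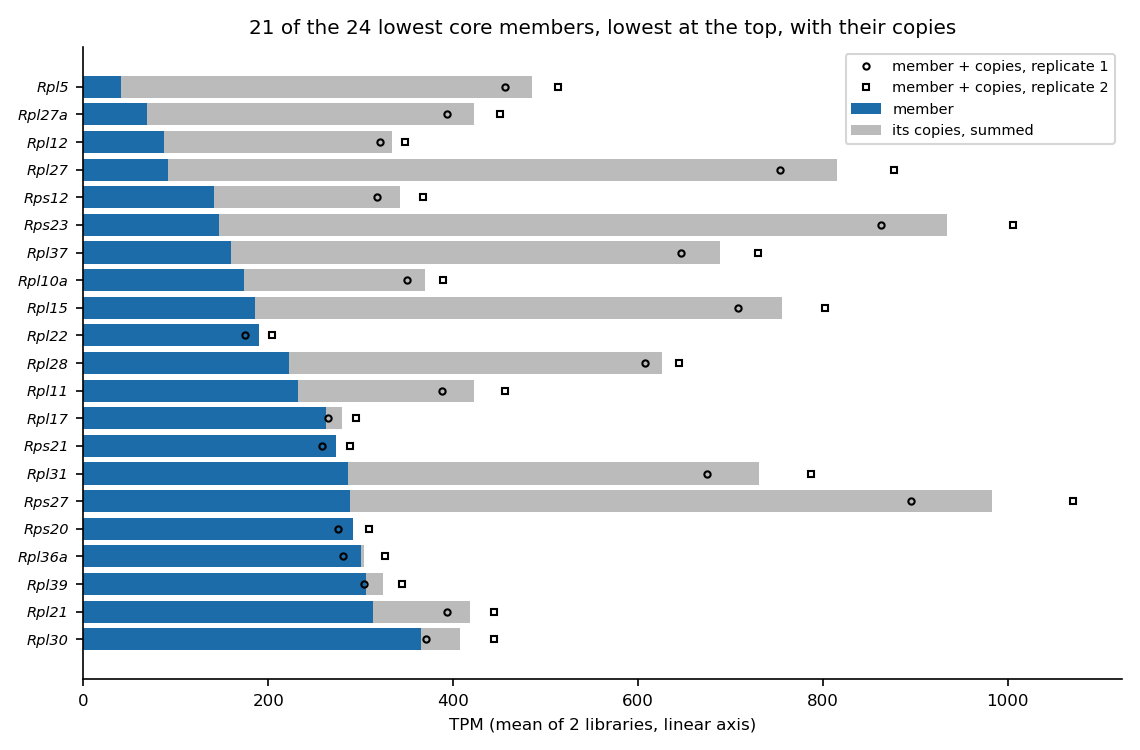
Mean TPM (linear axis) of 21 of the 24 lowest core genes, lowest at the top, as blue bars with the summed TPM of their copies stacked in grey; circles and squares mark the sum in replicates 1 and 2. Rpl5, Rpl27, Rps23 and Rps27 have grey parts longer than the blue, and Rpl22, Rps21 and Rps20 have next to none.

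An estimated count need not be whole when the quantification divides reads among features. The count lay over 0.005 from a whole number, and is called not whole, in both libraries in 71 of 83 members, beside 23.1% of protein-coding genes with a mean count of at least 50 and 26.3% of those with at least 1000. At a distance of over 0.1 it was 50 of 83 members, beside 15.4% of protein-coding genes with a mean count of at least 50. Not whole in both libraries were 23 of 77 for mitochondrial ribosomal proteins. Whole counts in both libraries were found for 5 core genes, among them Rps9, Rpl23, Rps3 and Rps20, and for Rps27l, Rpl3l, Rpl39l and Rpl10l, the last at 0. Rpl32, Rpl8 and Rps21 had a whole count in 1 library.

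In part of the members the fractions added up across the features that share sequence. The counts of a member and of every feature sharing a 50-nt window with it were added. The sum was within 0.03 of a whole number in both libraries for 42 of the 71 members with counts not whole. The member alone gave 1 of 71, a low number that follows from choosing these members for counts that were not whole. The share of such sums among other genes was not computed. Rps27 had 1252.75 and 1296.28 reads and its copies 4935.25 and 5693.72 reads in replicates 1 and 2, which add up to 6188 and 6990. Rpl10a had 3451.05 and 3834.16 reads and the features sharing its windows 3097.95 and 3050.84 reads, which add up to 6549 and 6885. For Rpl4 the sums were 22899 and 24836, of which the other gene, Gm5835, held 56.27 and 50.46 reads. For 29 members the sums were not whole, among them Rplp2, with sums of 7629.01 and 7510.51.

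The paralogues ranged from 0 TPM to the level of a core gene. Rpl3l (chr17:24727820-24736143, plus strand), the muscle paralogue of Rpl3, was listed at 0.53 and 0.92 TPM in replicates 1 and 2, with deposited intervals of 0.362 to 0.965 and 0.674 to 1.47 TPM. These rest on 17 and 27 reads, with exact 95% Poisson intervals of 9.90 to 27.2 and 17.8 to 39.3 reads that cover counting error only. Rpl3 had 495 and 589 TPM, so that Rpl3l over Rpl3 was -9.57 ± 0.38 on the log2 scale with 0.01 TPM added (SD, n = 2), or 762-fold lower; with 1 TPM added it was -8.30, or 316-fold lower. The deposited intervals of the 2 genes lay apart in both libraries, and the counts of Rpl3l were whole.

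The coding sequences of Rpl3l and Rpl3, shown because Rpl3l shared no 50-nt window, were 75.5% identical over 1193 aligned bases, and their longest exact match was 22 nt. The opening 60 coding bases are given with differences from Rpl3 (chr15:80077791-80091868, minus strand) in capitals.
Rpl3: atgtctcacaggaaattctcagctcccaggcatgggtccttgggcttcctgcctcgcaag
Rpl3l: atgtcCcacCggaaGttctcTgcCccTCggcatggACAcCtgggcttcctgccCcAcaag

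Markers of skeletal muscle lineage, where Rpl3l is also known, were low: 4 of 8 reached 1 TPM in both libraries, and the highest was Tnnt3, a fast skeletal troponin, at 3.13 and 4.47 TPM in replicates 1 and 2. Myog, a regulator of myoblast differentiation, had 1.15 and 2.90 TPM. Of the 8 markers 6 were listed higher in replicate 2, as was Rpl3l, and Actn3 (3.02 and 2.30 TPM) and Myf6 (0.30 and 0.06 TPM) were listed higher in replicate 1. Most genes were listed higher in replicate 2: of 21474 protein-coding genes, 12652 were, and 4501 were higher in replicate 1. The shared direction is therefore not particular to these markers and Rpl3l. The part of skeletal muscle cells in the Rpl3l level was not tested. In bulk tissue, fewer cells of a type and less RNA per cell cannot be told apart.

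Rpl39l and Rpl10l, both known from the testis, were at or near 0. Rpl39l had 0.19 and 0.37 TPM in replicates 1 and 2, from 4 and 6 reads, and was -10.11 ± 0.55 on the log2 scale relative to Rpl39 (SD, n = 2), or -7.91 with 1 TPM added. Rpl10l had 0 reads in both libraries, and a count of 0 allows up to 0.111 and 0.118 TPM at 3 reads. Against this floor per library Rpl10l was at least 3187-fold lower than Rpl10 in replicate 1 and at least 3634-fold lower in replicate 2.

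Rpl7l1, known in human for a role in ribosome assembly, was 60.03 and 70.7 TPM in replicates 1 and 2, against 767 and 830 TPM for Rpl7. Its log2 ratio over Rpl7 was -3.61 ± 0.09 (SD, n = 2). Rpl22l1 was close to Rpl22 in gene TPM: 165 and 187 TPM in replicates 1 and 2, against 175 and 204 TPM, a log2 ratio of -0.11 ± 0.03. With coding transcripts only, the log2 ratio was -0.51, so the near equality depends on which transcripts are counted. The deposited intervals of this pair overlapped in both libraries, unlike those of the other 8 pairs compared. Rps4l, annotated as a transcribed pseudogene and so no member, had 201 and 224 TPM, against 371 and 415 TPM for Rps4x, a log2 ratio of -0.89 ± 0.01.

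Rps27l, a p53-regulated paralogue, was the highest of the paralogues and stood above its partner. It had 407 and 466 TPM in replicates 1 and 2, against 274 and 303 TPM for Rps27, a log2 ratio of 0.59 ± 0.04 (SD, n = 2). Rps27 is a member whose copies held most of the family, and with Rps27rt added the partner stood at 896 and 1070 TPM, above Rps27l, and the log2 ratio turned to -1.17. The 60 coding bases after the start codon, picked by the rule used for Rpl5 and Rps23, show the 3 genes. Differences from Rps27 (chr3:90212522-90213651, minus strand) are in capitals. Rps27l lies at chr9:66946086-66949516, plus strand, and Rps27rt at chr9:114982366-114982739, minus strand.
Rps27: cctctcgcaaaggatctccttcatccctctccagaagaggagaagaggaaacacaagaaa
Rps27l: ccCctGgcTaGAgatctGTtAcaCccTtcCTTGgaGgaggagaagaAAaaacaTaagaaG
Rps27rt: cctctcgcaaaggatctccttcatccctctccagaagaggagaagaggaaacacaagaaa

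Rps27rt, annotated as protein-coding, was 100% identical to Rps27 over all 252 coding bases, and Rps27l 75.3% identical over 251 aligned bases. Rpl36al, outside the symbol rule, was also above its partner, with 373 and 443 TPM in replicates 1 and 2, against 277 and 322 TPM for Rpl36a (log2 ratio 0.44 ± 0.02, SD, n = 2).

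The deposited credibility intervals were narrow for most members. Their width relative to TPM had a median of 5.26% over the 80 members with a mean of at least 1 TPM, beside 9.62% for mitochondrial ribosomal proteins and 16.1% for protein-coding genes. The 8 widest were Rps27 (28.6%), Rps12 (20.8%), Rpl27 (16.8%), Rpl12 (16.3%), Rpl5 (15.7%), Rpl10 (12.7%), Rpl31 (12.7%) and Rpl28 (12.4%). In each of these 8 the copies held between 39.9% and 91.6% of the family. Across core genes the width went with a lower count (Spearman's rho -0.87, n = 77 genes) and with a smaller share of the family (rho -0.64, n = 77), as a description over genes of the same 2 libraries. The family share contains the member's own TPM, so the 2 relations are not separate. Against the share of windows found in other genes, the width had a rho of -0.00068.

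**Figure D4:**
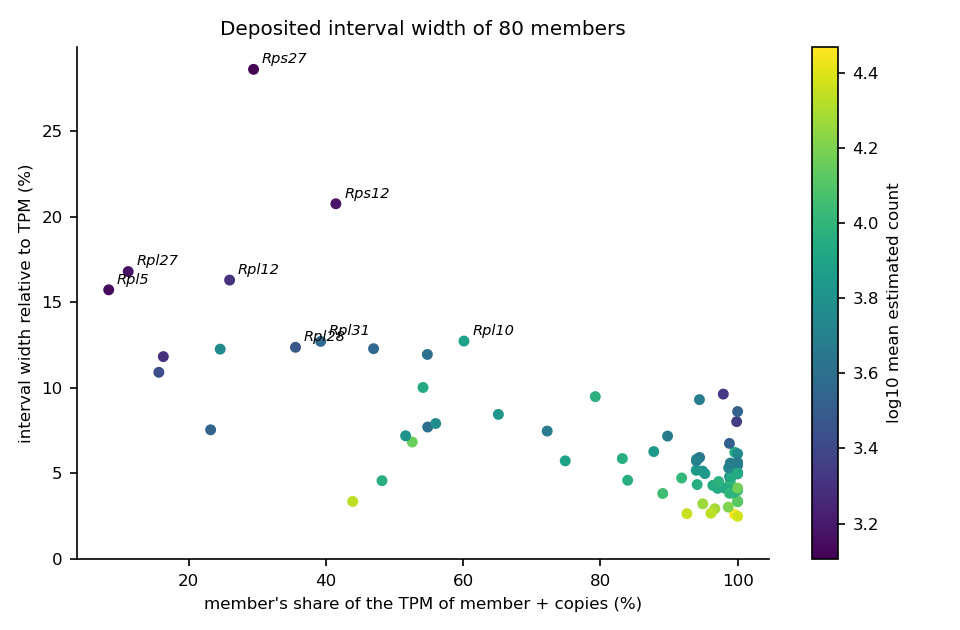
Width of the deposited interval relative to TPM (percent, mean of 2 libraries) against the member's share of the TPM of itself and its copies, coloured by log10 mean count, for 80 members. The widest, Rps27, Rps12, Rpl27, Rpl12 and Rpl5, all have dark colours (low counts) and family shares below 50%.

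The deposited TPM did not always fall inside its own interval. It lay above the upper bound in both libraries in 13 of the 80 members, beside 2.15% of protein-coding genes with at least 1 TPM and 20.8% of those with at least 100 TPM. Rpl41 was one of them: 2068 TPM against an upper bound of 2056 TPM in replicate 1. The deposited posterior mean TPM of all members summed to 3.95% of the total, against 4.03% for the deposited TPM. Posterior mean counts differed from the estimated counts by over 0.5% in 2 of 82 members, Rpl5 (0.62% higher) and Rps27 (0.58% lower). The next were Rps12 (0.43% higher) and Rpl30 (0.38% lower).

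Between the 2 libraries the members were close. After scaling, 0 of 80 members with enough reads were 2-fold apart, beside 1.01% of all genes (0.269% higher in replicate 1 and 0.741% higher in replicate 2), and 0 were 1.5-fold apart, beside 3.41%. Members have far higher counts than most genes. The log2 ratio of replicate 1 over replicate 2 ranged from -0.18 to 0.16, with a median of -0.05 and an SD of 0.07, beside a median of 0.01 and an SD of 0.29 for protein-coding genes. The 6 members lowest in replicate 1 relative to replicate 2 included Rpl11 (-0.18), Rps18 (-0.17), Rpl10 (-0.14), Rps19 (-0.12) and Rpl13a (-0.12). The 6 at the other end were Rpl5 (0.16), Rpl28 (0.15), Rps12 (0.13), Rpl35 (0.12), Rpl29 (0.12) and Rplp2 (0.08).

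**Figure D5:**
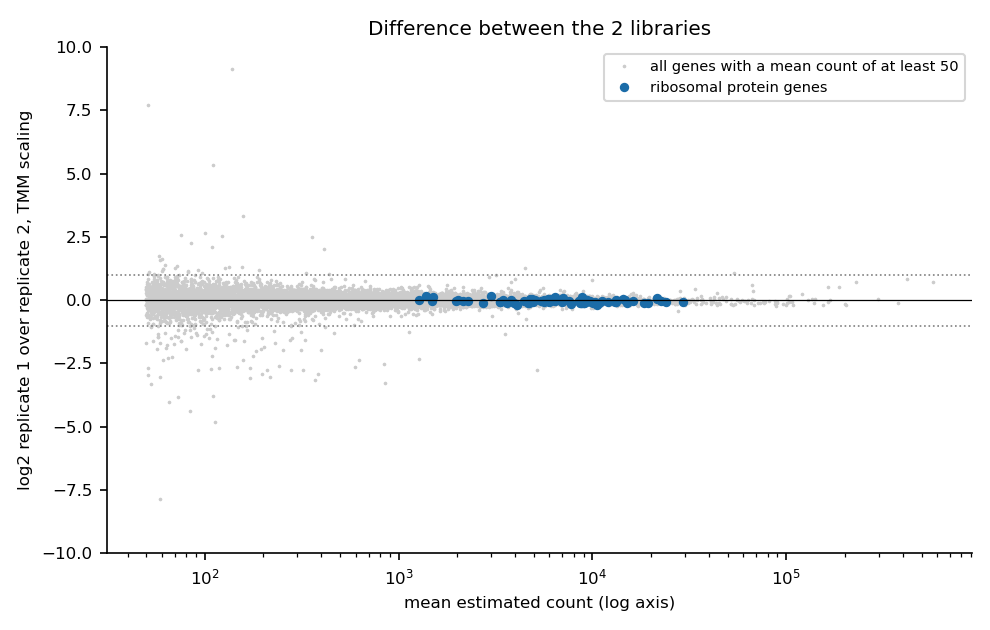
Log2 ratio of scaled counts, replicate 1 over replicate 2, against the mean estimated count (log axis) for all genes with a mean count of at least 50 (grey) and the members (blue); dotted lines mark 2-fold. All members lie between -0.18 and 0.16, well inside the dotted lines.

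On the TPM scale most members were higher in replicate 2, as were genes in general. TPM was higher in replicate 2 in 81 of 83 members and higher in replicate 1 in Rpl28 alone, with 231 and 214 TPM in replicates 1 and 2. Of 12804 protein-coding genes with a mean count of at least 50, 10248 were higher in replicate 2 and 2503 in replicate 1. Among the 77 mitochondrial ribosomal proteins these counts were 75 and 2. The intervals of the libraries lay apart, higher in replicate 2, in 67 of the 80 members, beside 32.5% of protein-coding genes. They lay apart, higher in replicate 1, in 0 members, beside 1.43%. These shares are not of like genes: the median interval width was 5.26% of TPM for members and 16.1% for protein-coding genes. No share was computed for genes with intervals as narrow as those of the members. The median TPM ratio was -0.18 for members and -0.15 for all genes on the log2 scale, and the share of spike-ins in the TPM differed between the libraries as given above.

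Most members were listed with 1 leading transcript. Of 59 members with more than 1 annotated transcript and at least 1 TPM, 54 had the same leading transcript with over 50% of the gene's TPM in both libraries, beside 71.4% of such protein-coding genes. At over 80% of the TPM the count was 33 of 59, beside 34.6%. The leading transcript was protein-coding in 77 of 83 members. The same share among other protein-coding genes was not computed, so this count is no trait of the members. The 83 include 22 with only 1 listed transcript, and Rpl10l, which had 0 reads. Rps20, a 40S protein, was led by a transcript annotated as a retained intron (91.8% and 91.6% of its TPM in replicates 1 and 2), and Rpl5 by another (48.6% and 46.5%). Rpl12 was led by a transcript annotated for nonsense-mediated decay (56.5% and 58.5%). Rpl35 (87.0% and 87.6%) and Rpl23 (55.1% and 51.6%) were led by processed transcripts. Whether these values come from RNA that keeps introns was not tested.

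Ribosomal protein genes also carry other RNAs in their introns. Annotated snoRNA genes, whose products guide the modification of ribosomal RNA, lie on the same strand inside 30 of the 83 members, 58 in all, beside 1.19% of protein-coding genes with at least 1. Rpl4 held 5 of them and Rpl13a 4. Reads of a host intron and of its snoRNA were not separated here.

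A TOP-like start was more frequent in core genes than in protein-coding genes in general, though most core genes lacked it at the annotated start base. RefSeq promoter windows (GRCm38.p6) were found for 63 of the 83 members. A C at the annotated start base followed by 4 bases that are each C or T, on the gene's strand, was present in 13 of 57 core genes (22.8%), 0 of 6 paralogues, and 2.73% of 16317 protein-coding genes. The starts are shown for the 4 highest such members as 30 bases, with the pyrimidine run from the start base in capitals: Rps18 (chr17:33955646-33955675, minus strand), Rplp2 (chr7:141447641-141447670, plus strand), Rpl38 (chr11:114668570-114668599, plus strand) and Rpl35a (chr16:33056472-33056501, plus strand).
Rps18: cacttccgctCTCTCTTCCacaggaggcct
Rplp2: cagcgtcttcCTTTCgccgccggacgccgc
Rpl38: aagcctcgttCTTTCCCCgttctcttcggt
Rpl35a: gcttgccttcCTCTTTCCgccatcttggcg

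Within 2 bases of the annotated start the motif was present in 20 of 57 core genes (35.1%), beside 10.6% of protein-coding genes, and within 5 bases in 27 (47.4%), beside 21.8%. A match describes the letters near an annotated start.

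Other genes of the translation machinery were listed for comparison. The listed ribosomal proteins outside the rule all exceeded 100 TPM, among them Rps27rt (622 and 767 TPM in replicates 1 and 2, the highest mean), Rpl36al, Rack1 (346 and 376 TPM) and Fau lowest (285 and 355 TPM). Of 16 elongation factors and other TOP mRNAs, 13 exceeded 100 TPM, with a median of 234 TPM. Eef1a1, which delivers aminoacyl-tRNA, was highest at 2431 and 2800 TPM, above every ribosomal protein gene, followed by Tpt1 (669 and 757 TPM), Npm1 (413 and 475 TPM) and Hnrnpa1 (370 and 404 TPM), and Eif3f was lowest at 42.0 and 45.4 TPM.

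Initiation factors, ribosome biogenesis factors and the mTOR and Myc regulators had lower medians of 83.9, 38.0 and 32 TPM over 16, 24 and 15 genes. All of these genes were detected. Their highest were Eif1 (1201 and 1356 TPM in replicates 1 and 2), Ncl, nucleolin (190 and 200 TPM), and Eif4ebp1, a repressor of cap-dependent translation (300 and 337 TPM). The lowest were Eif5b (14.0 and 16.0 TPM), Polr1a, the large subunit of RNA polymerase I (12.3 and 12.1 TPM), and Rptor (5.39 and 5.78 TPM). Of the 71 genes of these 3 lists and the elongation factors, 0 were 2-fold apart between the libraries. The share of all genes with a mean count of at least 50 was 1.01%, so 0 of 71 does not set these genes apart.

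The 19 members whose human genes are linked to Diamond-Blackfan anaemia, a failure of red cell production, were all detected, and 17 reached 100 TPM in both libraries. Their median of 450 TPM compares with 490 TPM over the other 58 core genes. Rps29, Rps19 and Rps26 were among the highest of these, and Rpl5 was the lowest.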

How the data were processed

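Total RNA-seq of E13.5 mouse heart was deposited as gene and transcript tables for 2 libraries of 1 group. The deposited estimated counts are, per the file headers, expected reads per gene or transcript with no normalization. The deposited TPM values are, per the file headers, scaled to a fixed sum over all features, spike-ins included. The deposited percent columns divide each gene's TPM among its transcripts, per the file headers. The bounds are of a credibility interval whose level is not given. Aligner, quantifier and strand: not given in the sources used here. RefSeq and GENCODE M21 tables of the same assembly gave names and sequences; 42462 of 43346 genes matched by identifier without version, and 101510 of 103639 transcripts had a sequence, 91424 of them of the listed length.

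Members and lists were chosen with earlier results of these data known. The named genes followed a rule: the 12 highest and 12 lowest members, all of the stalk, 5S, exit tunnel and paralogue lists, the 6 largest library ratios each way (mean count 200 or more), the 8 widest intervals, the 8 largest and 8 smallest shared shares, the 6 highest copies, 4 posterior shifts, and of other lists the 4 highest and the lowest. Copies, their classes and the sums of counts were defined after the data were seen; 19 overlapping, 9 small RNA and 2 unmatched features were left out. A few of the genes so chosen are not reported here.

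Counts were rounded and scaled by TMM (edgeR 4.0.16, R 4.3.3), with DESeq2 1.42.0 size factors and spike-ins as alternatives. Log2 ratios used 0.5 added reads and a mean count of at least 50. With 1 library a side no p-value was computed. A floor is 3 reads. The Poisson intervals cover counting error only. Without molecular identifiers, PCR reads are not independent, and these intervals do not allow for that. Alignments used Biopython 1.88; other steps Python 3.11.15, numpy 2.4.6, pandas 2.3.3 and scipy 1.17.1. The steps were tested on simulated data: over 13771 genes, 200 of 200 genes changed 3-fold were recovered at the 2-fold limit and 0 others were called. The simulated counts had Poisson error only, with no further variation between libraries. They check the computation and give no rate of calls for these libraries.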

Additional observations from a re-analysis of the deposited data

How the results depend on the processing

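No paired analysis was possible because there is 1 group, whose 2 replicate numbers form no pairs. Several alternatives moved a value by more than the spread it was set against, or a count by over 1.5 times. The summed level of the members was 4.03% ± 0.36 of TPM (SD, n = 2) and 4.90% of protein-coding TPM. The median log2 ratio of replicate 1 over replicate 2 was -0.05 with TMM scaling, -0.18 as a TPM ratio and -1.34 with spike-in scaling, where the median of all genes moved to -1.29; relative to all genes the members stood at -0.05 with TMM and spike-in scaling and -0.04 with the TPM ratio. With spike-in scaling 80 members, against 0, were 2-fold apart between libraries, as were 12814 of all genes. Of the pairs compared, the stalk pair Rplp1 and Rplp2 among them, 8 had intervals apart and 4 were 2-fold apart in both libraries. The SD of log2 levels over core genes was 0.98, 0.48 over the 5 core genes with whole counts, and 0.67 with families summed. The family SD was 0.71 with copies of at least 50% shared windows, 0.68 with 100-nt windows, and 0.67 to 0.68 without either replicate. Copies held 22.9% of family TPM and 22.0% with the 50% rule. The start motif was in 13 core genes, in 20 within 2 bases and in 27 within 5 bases. Leaving out either replicate gave the same side of each limit elsewhere: 80 to 80 members detected, 75 to 75 at 100 TPM, 72 to 73 with counts not whole, 3.77% to 4.28% of TPM, 14 to 14 below 50% of their family. Of 48 alternatives over 8 pairs with reads (7 of paralogues and the stalk pair), 1 turned a direction: Rps27l over Rps27 was -1.17, against 0.59, with the identical Rps27rt added to the partner, chosen after the data were seen. With 1 TPM added, Rpl3l over Rpl3 was -8.30 and Rpl39l over Rpl39 -7.91, against -9.57 and -10.11. With coding transcripts only, directions held but some sizes moved. Rpl22l1 over Rpl22 was -0.51 against -0.11, Rpl7l1 over Rpl7 -3.06 against -3.61, and Rplp1 over Rplp2 0.34 against 0.16. Stricter limits gave 68 members at 200 TPM, 50 with counts over 0.1 from whole, 54 of all members with a transcript over 80% against 77 at over 50%, and 28 whole sums with copies only against 42. The family definition was chosen after the data were seen.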

Other observations

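For some copies the deposited bounds reached down almost to 0. Gm10163, a pseudogene copy of Rpl21, was listed at 91.4 and 105 TPM in replicates 1 and 2, with intervals of 0.609 to 78.0 TPM and 1.31 to 81.9 TPM. Gm12191, a copy of Rpl30, was listed at 34.5 and 44.4 TPM, with intervals reaching down to 0.000649 and 0.796 TPM. Rpl15-ps3 was listed at 517 and 601 TPM with intervals of 306 to 526 TPM and 386 to 598 TPM. The listed value lay above its own interval in both libraries for Gm10163 and in replicate 2 for the other 2. These 3 were chosen after their values were seen.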
